A study of Mus musculus with 14 samples.

Results

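The genes described here are 9 members of the CCN family of matricellular proteins and of the YAP/TAZ pathway that controls several of them: Ctgf, Cyr61, Nov, Wisp1, Wisp2, Ankrd1, Amotl2, Yap1 and Wwtr1. They were taken from the 23331 genes of the count table as those whose gene name equals one of these symbols. Each symbol occurs once in the table, and all 9 were among the 13896 genes that reached at least 1 CPM (reads per 1000000 counted reads of the library) in at least 3 libraries and were tested.

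RNA was sequenced from 14 cultures of mouse bone marrow stromal cells, the adherent cells of the marrow that can give rise to bone, fat and cartilage cells. All cultures share the same background: adult C57Bl/6 mice carrying the irtTA-GBD*-TAg transgene, a conditional large T antigen that was induced with dexamethasone and doxycycline to expand the clones. RNA was taken 3 days after both inducers were withdrawn, with no differentiation medium named for these cultures. The groups are defined by what the clones could become in differentiation assays: OAC clones are osteogenic, adipogenic and chondrogenic, OA clones osteogenic and adipogenic, O clones osteogenic, and A clones adipogenic.

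Each of these 4 groups holds 3 libraries. Libraries numbered 1 and 2 are each a single clone, the pair coming from different mice, and a library numbered 3 pools several further clones of the same mice. The osteogenic and chondrogenic group (OC3) and the adipogenic and chondrogenic group (AC3) have 1 pool each, so they have no replicate and enter no test. A single-clone library stands for 1 clone, and p-values here reflect only how much these clones and pools differ among themselves. In bulk RNA, fewer cells expressing a gene and less of its RNA per cell cannot be told apart.

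Total counts ran from 16888190 to 26076539 per library. Over all members and libraries, reads ran from 14 (Ankrd1 in O1) to 43719 (Cyr61 in A3). Most libraries departed from the average library in a way that followed the GC content of genes, with a Spearman rho between -0.54 (OAC3, OC3 and AC3) and 0.65 (OA2); O1, at 0.51, came next to OA2. All 10 stromal markers had reads, 8 of them averaged at least 1 CPM, and they summed to 18299 to 90416 CPM. Col1a1 alone reached 55512 CPM. Markers of blood cells reached at most 65.0 CPM in sum, those of endothelium 9.71 CPM, of Schwann and neural cells 95.1 CPM and of epithelium 15.4 CPM, while smooth muscle genes, which stromal cultures also express, summed to 3447 to 19873 CPM.

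YAP1 and its relative TAZ, encoded by Wwtr1, are coactivators that carry no DNA-binding domain and act through the TEAD transcription factors. The Hippo kinases phosphorylate them and hold them in the cytoplasm, and spreading on a stiff surface or low cell density lets them enter the nucleus, where Ctgf, Cyr61, Ankrd1 and Amotl2 are among their best known targets. In marrow stromal cells TAZ is known to coactivate Runx2, the regulator of osteoblast formation, and to repress Pparg, the regulator of fat cell formation. The CCN proteins are secreted, bind integrins and growth factors in the matrix, and are named by number in the current nomenclature: Cyr61 is Ccn1, Ctgf is Ccn2, Nov is Ccn3, Wisp1 is Ccn4 and Wisp2 is Ccn5.

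The promoters were searched for the letters that TEAD proteins recognise. The 250 bases before the transcription start were read from the RefSeq promoter table of build GRCm38.p6, which matched 5 of the 9 members (Cyr61, Ankrd1, Amotl2, Yap1 and Wwtr1). The motif searched was GGAATG on both strands, and the windows of the 3 matched target genes are shown because the results below set these genes against each other. They are written 5′ to 3′ on the strand of the gene, and capitals mark the motif, which reads CATTCC where it lies on the opposite strand.
Cyr61, chr3:145649986-145650235, minus strand: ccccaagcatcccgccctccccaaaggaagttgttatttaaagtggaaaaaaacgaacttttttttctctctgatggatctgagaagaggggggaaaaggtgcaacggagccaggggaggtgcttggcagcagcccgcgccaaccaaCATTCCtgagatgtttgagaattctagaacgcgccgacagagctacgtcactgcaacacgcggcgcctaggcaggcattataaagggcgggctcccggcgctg
Ankrd1, chr19:36119845-36120094, minus strand: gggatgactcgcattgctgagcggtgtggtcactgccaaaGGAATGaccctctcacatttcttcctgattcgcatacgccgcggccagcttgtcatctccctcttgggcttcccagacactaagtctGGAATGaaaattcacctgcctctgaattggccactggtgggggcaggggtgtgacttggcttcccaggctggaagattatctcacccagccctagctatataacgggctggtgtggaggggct
Amotl2, chr9:102717554-102717803, plus strand: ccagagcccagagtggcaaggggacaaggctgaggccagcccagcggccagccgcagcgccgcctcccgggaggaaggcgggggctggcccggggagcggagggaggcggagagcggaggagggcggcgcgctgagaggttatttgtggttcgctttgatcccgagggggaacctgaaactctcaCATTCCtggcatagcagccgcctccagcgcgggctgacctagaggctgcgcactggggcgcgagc
Cyr61 has 1 copy, starting 103 bases upstream of the start. Ankrd1 has 2 copies, at 210 and 123 bases, and Amotl2 has 1 copy at 65 bases. The windows of Yap1 and Wwtr1 also held it, so that all 5 matched members did, against 12.6% of the 32851 windows of the table and 14.4% of its 27025 genes. Windows with 2 or more copies made up 1.02% of the table. The CArG box, the recognition element of serum response factor, was found in none of the 6 member windows and in 1.47% of all windows, so it overlapped no copy of the motif. These matches are letters in a window and say nothing of binding.

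Compared per length, as CPM per kilobase of the exon length deposited with the counts (RPKM), the most abundant member was Cyr61, with a mean level of 463 RPKM over the 14 libraries. Ctgf followed with a mean level of 209 RPKM, then Wisp2 with 86.8, Nov with 60.8, Amotl2 with 55.5, Wisp1 with 36.9, Yap1 with 34.6, Wwtr1 with 22.8 and Ankrd1 with 15.2 RPKM. The sixth family member, Wisp3, was not among the 9 and was close to absent, with 12 reads over all libraries, at most 2 in one of them and none in 5. A count of 0 allows up to 3 reads, or 0.115 to 0.178 CPM at these depths.

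The members differed widely in how much they varied. The SD of log2 CPM over the 14 libraries was 2.21 for Ankrd1, 1.64 for Ctgf, 1.45 for Nov, 1.10 for Wisp2, 0.75 for Wisp1 and 0.68 for Cyr61, against a median of 0.51 over all tested genes. Wwtr1 (0.39), Amotl2 (0.28) and Yap1 (0.25) lay below that median. The coactivator genes thus varied less than the median gene, while Ankrd1 (98.1th percentile of variation) and Ctgf (92.7th percentile) were among the most variable genes of the table.

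**Figure D1:**
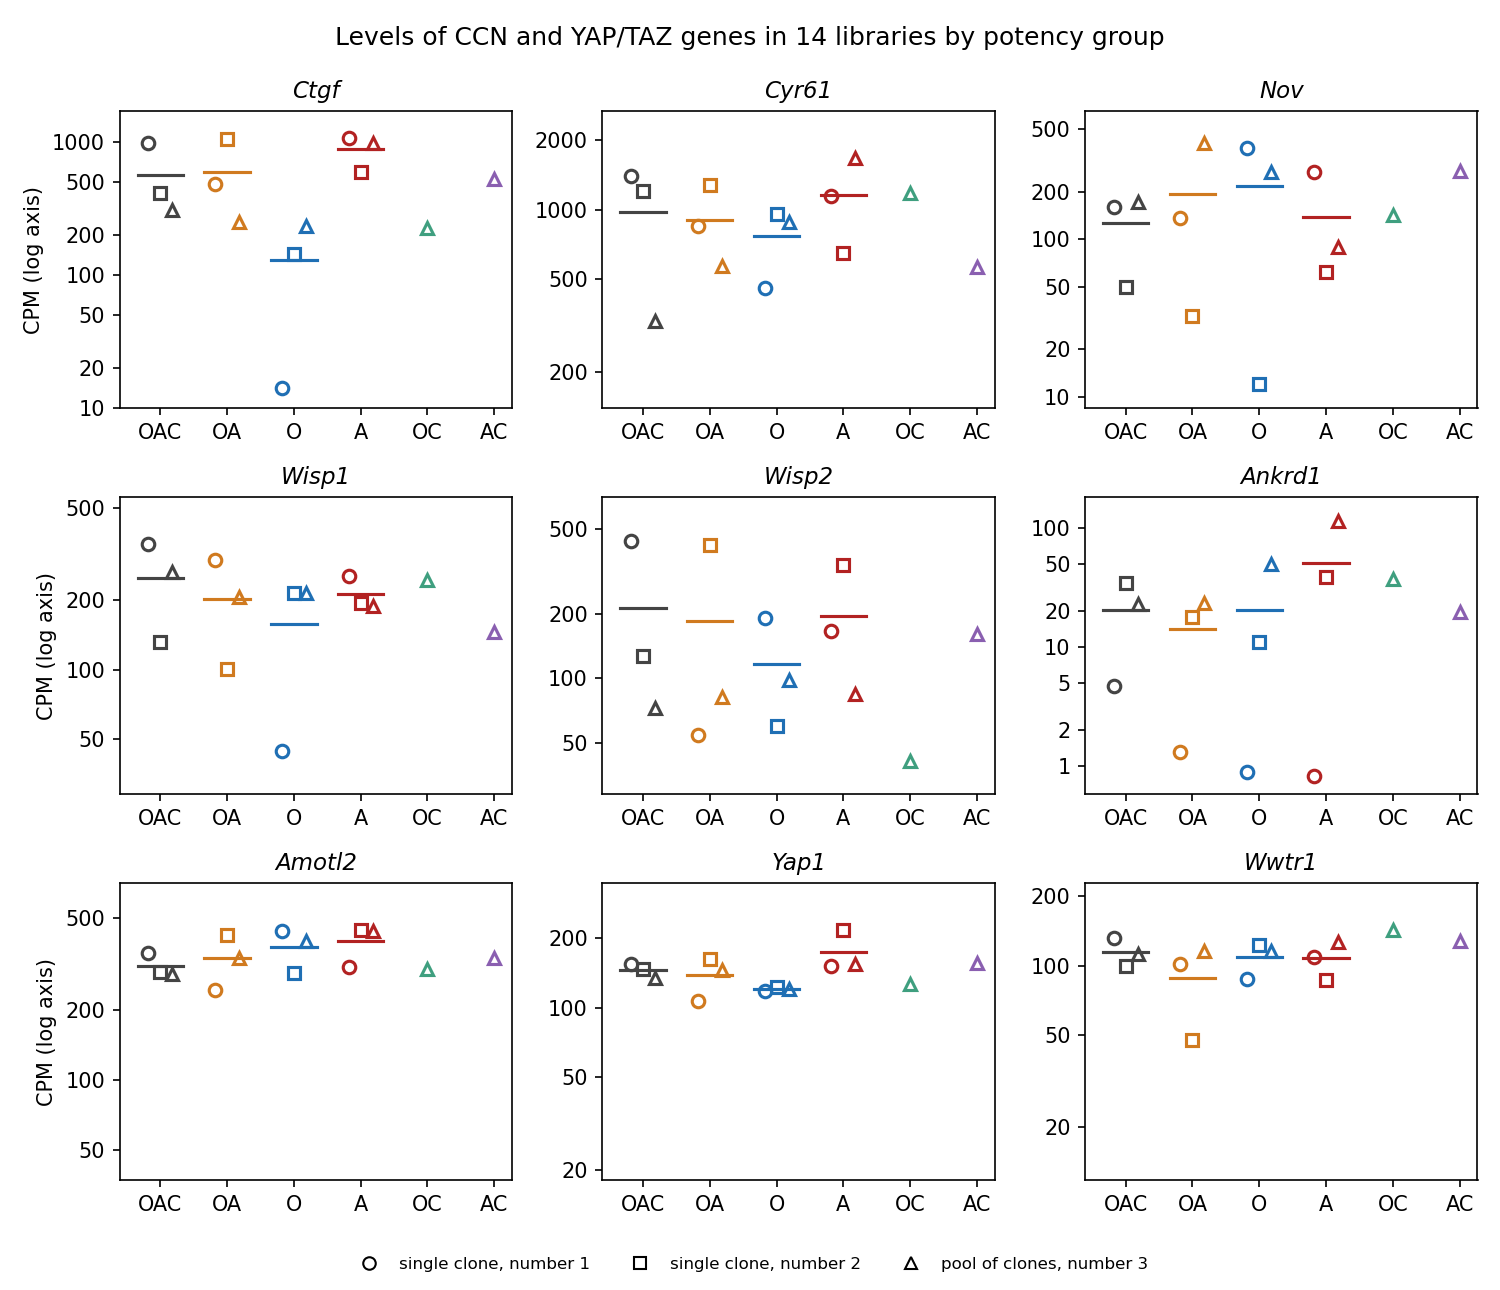
Level of each of the 9 genes (CPM on a log axis) by potency group, with 1 symbol per library (circles and squares, single clones; triangles, pools) and a bar at the mean of each group of 3. Ctgf in the O libraries and OC3 lies between 14.2 and 232 CPM, below every other library, while Amotl2, Yap1 and Wwtr1 spread little.

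Ctgf (ENSMUSG00000019997) encodes connective tissue growth factor, a matricellular protein that promotes matrix production and acts in cartilage and bone growth. It stood at 985, 411 and 307 CPM in OAC1, OAC2 and OAC3 and at 482, 1061 and 249 CPM in OA1, OA2 and OA3. In O1, O2 and O3 it stood at 14.2, 144 and 232 CPM, and in A1, A2 and A3 at 1070.1, 598 and 975 CPM. The unreplicated pools had 227 CPM (OC3) and 529 CPM (AC3). Every O library was below every OAC, OA and A library, O1 by far the lowest with 223 reads, and OC3 lay inside the O range. The order of the group means was A (881 ± 249.7 CPM), OA (598 ± 418), OAC (568 ± 365) and O (130.0 ± 109.7; SD, n = 3 each), and the neighbours A and OA, and OA and OAC, overlapped.

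The first comparison set the osteogenic against the adipogenic unipotent clones (O against A). Ctgf was lower in O, with a log2 fold change of -2.76 ± 0.89 (SE; 95% interval -4.73 to -0.79). Here and below the SE is the absolute log2 fold change over the square root of the F statistic. The unadjusted p in edgeR's quasi-likelihood test was 0.0108, and after Benjamini-Hochberg adjustment over all genes it was 0.339 (FDR), which does not pass 0.05. DESeq2, the second test, gave -2.73 with an adjusted p of 0.0301, which does. With DESeq2, Ctgf was 1 of 9 members called in O against A, where 3.03% of all genes were called. With edgeR, 0 of 9 were called, where 0.00720% of all genes were. At an unadjusted p under 0.05 edgeR had 2 members, Ctgf and Yap1, and 9.89% of genes.

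The DESeq2 call of Ctgf rested on most of the libraries being present. In that test its adjusted p was 0.0916 without O2, 0.166 without A1, 0.0744 without A2 and 0.121 without A3, against 0.0464 without O1 and 0.00501 without O3. Without both O1 and OA2, the libraries with the highest rho with GC content, DESeq2 gave -2.25 with an adjusted p of 0.00222 and edgeR gave -2.25 ± 0.58 with an FDR of 0.248. Other measures separate the same groups: the stromal markers summed to 57032 to 90416 CPM in O and 18299 to 23686 CPM in A (10 of 10 genes in the table), Schwann and neural markers to 34.5 to 45.8 CPM in O and 4.97 to 23.0 CPM in A (4 of 6 genes), and epithelial markers to 3.24 to 15.4 CPM in O and 1.94 to 2.25 CPM in A (4 of 4 genes). No gene of these lists was without reads, but only 8 stromal, 3 Schwann and neural and 1 epithelial gene averaged at least 1 CPM. The highest level of a single gene in any library was 55512 CPM for Col1a1, 84.8 CPM for Tubb3 and 15.2 CPM for Cdh1, so a sum can rest mainly on 1 gene. Of all tested genes, 15.6% did not overlap between O and A. The part of these markers in the Ctgf difference was not tested.

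The groups with mixed osteogenic and adipogenic potential were then set against O. The log2 fold change of Ctgf was 2.20 ± 0.87 in OA against O (95% interval 0.27 to 4.13; edgeR FDR 0.902) and 2.13 ± 0.87 in OAC against O (0.20 to 4.05; edgeR FDR 0.802). Neither passed, and DESeq2 gave adjusted p-values of 0.284 and 0.258. Both comparisons share the O libraries with O against A, so they do not count as separate evidence. The OA against O value is 1.49 without OA2, 0.98 without OA2 and O1 together and 3.32 with single clones only. The remaining Ctgf differences had intervals that include 0: OA against A -0.56 ± 0.84 (-2.41 to 1.29), OAC against A -0.63 ± 0.84 (-2.49 to 1.22), OAC against OA -0.07 ± 0.83 (-1.92 to 1.77), and the multipotent groups OAC and OA against the unipotent groups O and A 0.78 ± 0.59 (-0.53 to 2.10).

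No member was called in any of these other comparisons by either test, nor by edgeR in a test of any difference among the 4 groups. The share of all genes called by edgeR was 0% in OA against O, 0.00720% in OA against A, 0% in OAC against OA, 0% in OAC against O, 0.00720% in OAC against A, 0% in multipotent against unipotent and 0% in the test of any difference among the 4 groups. By DESeq2 it was 0.303% in OA against O, 0.937% in OA against A, 0% in OAC against OA, 0.728% in OAC against O, 0.411% in OAC against A and 0.223% in multipotent against unipotent. At an unadjusted p under 0.05 edgeR had 1 member, Ctgf, in OA against O and in OAC against O (5.43% and 6.02% of genes) and 0 members in the others (1.17% to 5.97% of genes).

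Counted by library order alone, 2 members did not overlap between O and A (Ctgf and Yap1, both lower in O; 15.6% of all genes did not overlap), 1 between OA and O (Ctgf; 8.20% of genes) and 2 between OAC and O (Ctgf and Yap1, both higher in OAC; 11.5% of genes). After the values were seen, Ctgf was also set out by adipogenic potential over all 14 libraries. The 10 libraries whose clones can form fat (OAC, OA, A and AC3) lay at 249 to 1070.1 CPM and the 4 that cannot (O and OC3) at 14.2 to 232 CPM. The gap between the groups is narrow, from 232 CPM in O3 to 249 CPM in OA3. Of all tested genes, 1.05% were likewise higher in each of the 10 than in each of the 4. As the split was chosen from the values, it is given with no test.

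**Figure D2:**
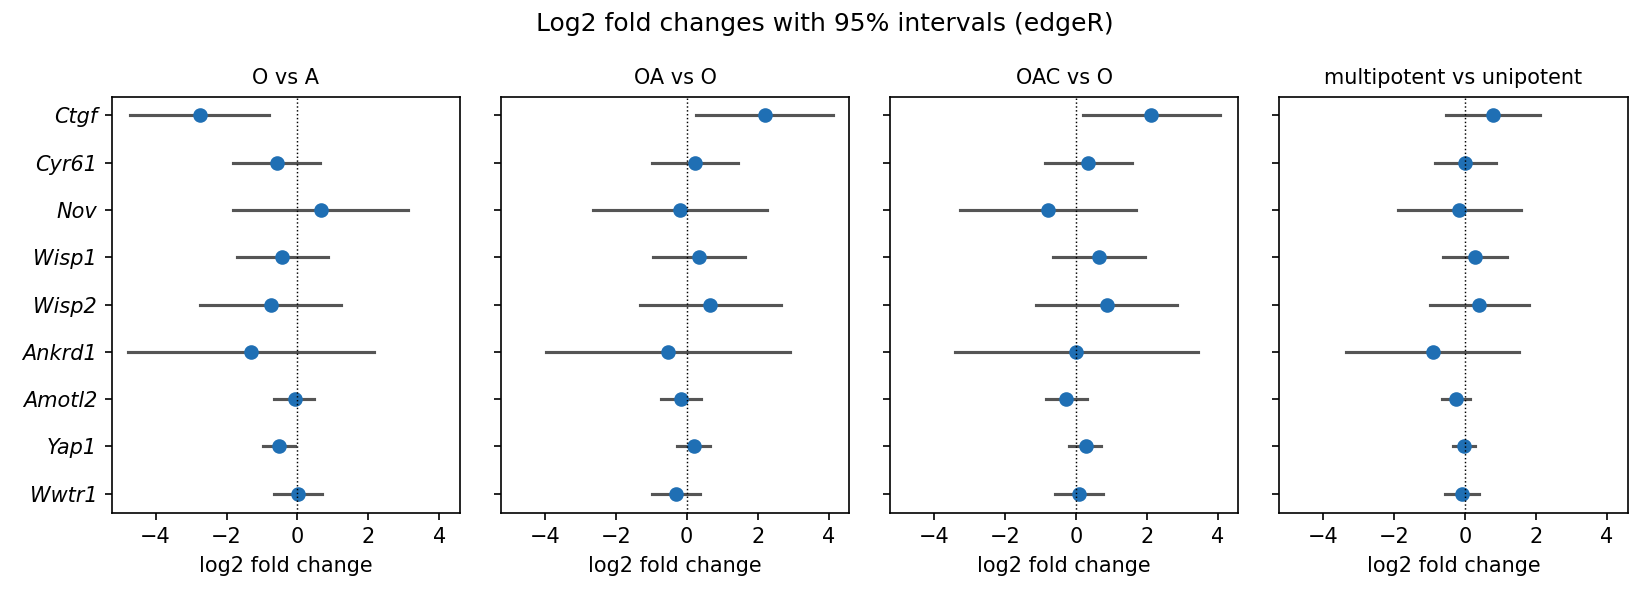
Log2 fold changes (points) of the 9 genes in 4 comparisons with 95% intervals from edgeR (lines); positive values are higher in the group named first. Only the Ctgf intervals of the first 3 panels and the Yap1 interval of O against A (-0.98 to -0.07) leave out 0, and none of these passed adjustment in edgeR.

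Cyr61 (ENSMUSG00000028195), a matricellular protein close to Ctgf in domain structure that is induced within minutes by serum and acts in cell adhesion and blood vessel growth, did not follow the same order. It stood at 1403, 1201 and 332 CPM in OAC1, OAC2 and OAC3, at 851, 1281 and 569 CPM in OA1, OA2 and OA3, at 458, 958 and 883 CPM in the libraries O1 to O3 and at 1141, 648 and 1667 CPM in A1, A2 and A3. OC3 had 1181 CPM and AC3 567 CPM. All groups overlapped, and the lowest value was that of OAC3. The log2 fold change of O against A was -0.59 ± 0.55 (95% interval -1.81 to 0.63; edgeR FDR 0.886, DESeq2 adjusted p 0.865).

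The ratio of Ctgf to Cyr61 within a library, in reads per base of exon, does not depend on the scaling of libraries. It was 0.572, 0.279 and 0.754 in OAC1, OAC2 and OAC3 and 0.461, 0.675 and 0.356 in OA1, OA2 and OA3. In O1, O2 and O3 it was 0.0252, 0.122 and 0.214, and in A1, A2 and A3 it was 0.764, 0.752 and 0.476. OC3 had a ratio of 0.156 and AC3 of 0.760. Cyr61 outnumbered Ctgf per length in every library, and the 4 lowest ratios were those of the 4 libraries without adipogenic potential. Ctgf and Cyr61 have a GC content of 49.2% and 52.7% in their longest transcripts, against a median of 49.9% over tested genes. The ratio was chosen after the values were seen, so it is a description.

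**Figure D3:**
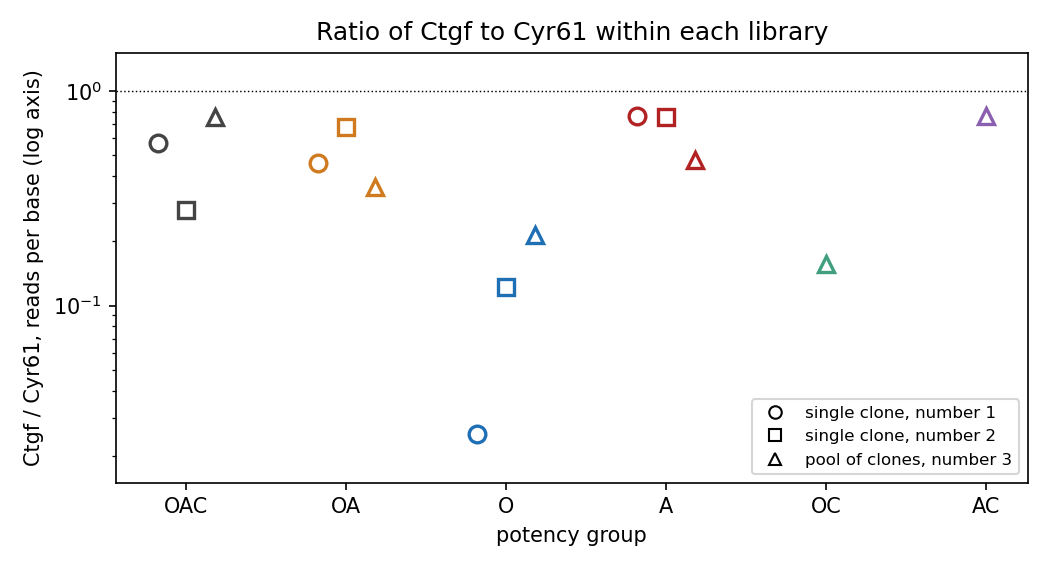
Ratio of Ctgf to Cyr61 in reads per base of exon (log axis) in each of the 14 libraries, by potency group; the dotted line marks a ratio of 1. The O libraries and OC3 lie between 0.0252 and 0.214, and the other 10 libraries between 0.279 and 0.764.

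Nov (ENSMUSG00000037362), a CCN protein known to restrain osteoblast differentiation and to counter Ctgf in cartilage cells, was lowest in the clones numbered 2. It stood at 159, 49.6 and 172 CPM in OAC1, OAC2 and OAC3, at 137, 32.7 and 406 CPM in OA1, OA2 and OA3, at 379, 12.1 and 265 CPM in the libraries O1 to O3 and at 266, 61.7 and 89.7 CPM in A1, A2 and A3. OC3 had 142 CPM and AC3 269.8 CPM. The clone numbered 2 was the lowest of its group in each of the 4 groups, and the 4 clones numbered 2 (12.1 to 61.7 CPM) lay below the other 10 libraries (89.7 to 406 CPM). Of all tested genes, 0.115% had all clones numbered 2 below all other libraries. Between potency groups Nov overlapped throughout, and O against A gave a log2 fold change of 0.65 ± 1.11 (-1.81 to 3.12; edgeR FDR 0.997), and 0.00 to 1.53 as single libraries were left out.

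Ankrd1 (ENSMUSG00000024803) encodes a nuclear and sarcomeric ankyrin repeat protein of heart and stretched muscle and is widely used as a readout of YAP activity. It stood at 4.67, 34.3 and 22.8 CPM in OAC1, OAC2 and OAC3, at 1.30, 17.7 and 23.4 CPM in OA1, OA2 and OA3, at 0.890, 10.9 and 49.4 CPM in the libraries O1 to O3 and at 0.822, 38.4 and 114 CPM in A1, A2 and A3. OC3 had 37.1 CPM and AC3 19.5 CPM. The clones numbered 1 were lowest in every group, with 106, 26, 14 and 20 reads in OAC1, OA1, O1 and A1. Their exact Poisson 95% intervals (counting error only) were 3.83 to 5.65, 0.850 to 1.91, 0.487 to 1.49 and 0.502 to 1.27 CPM, and the next library, O2, had an interval of 9.60 to 12.2 CPM. Of all tested genes, 0.230% had all clones numbered 1 below all other libraries.

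The labels do not say whether a number marks the same mouse in each group, and these splits by number were chosen from the values, so neither is tested. The number 3 also differs from 1 and 2 in being a pool. Nov and Ankrd1 did not split alike: Nov was low in the clones numbered 2, and Ankrd1 in those numbered 1. Skeletal and cardiac muscle markers showed no split like that of Ankrd1. Their sum over 9 of 12 listed genes was 9.69 to 86.9 CPM. Acta1, the gene with the highest level in any library (59.7 CPM), stood at 12.1, 26.3, 15.5 and 57.3 CPM in the 4 clones numbered 1 and at 4.01 to 59.7 CPM in the other libraries. Between potency groups Ankrd1 had intervals too wide to place a difference, with O against A at -1.32 ± 1.57 (-4.79 to 2.15; edgeR FDR 0.949). Without A3, its highest library, that value was 0.06, and without O3 it was -3.11.

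**Figure D4:**
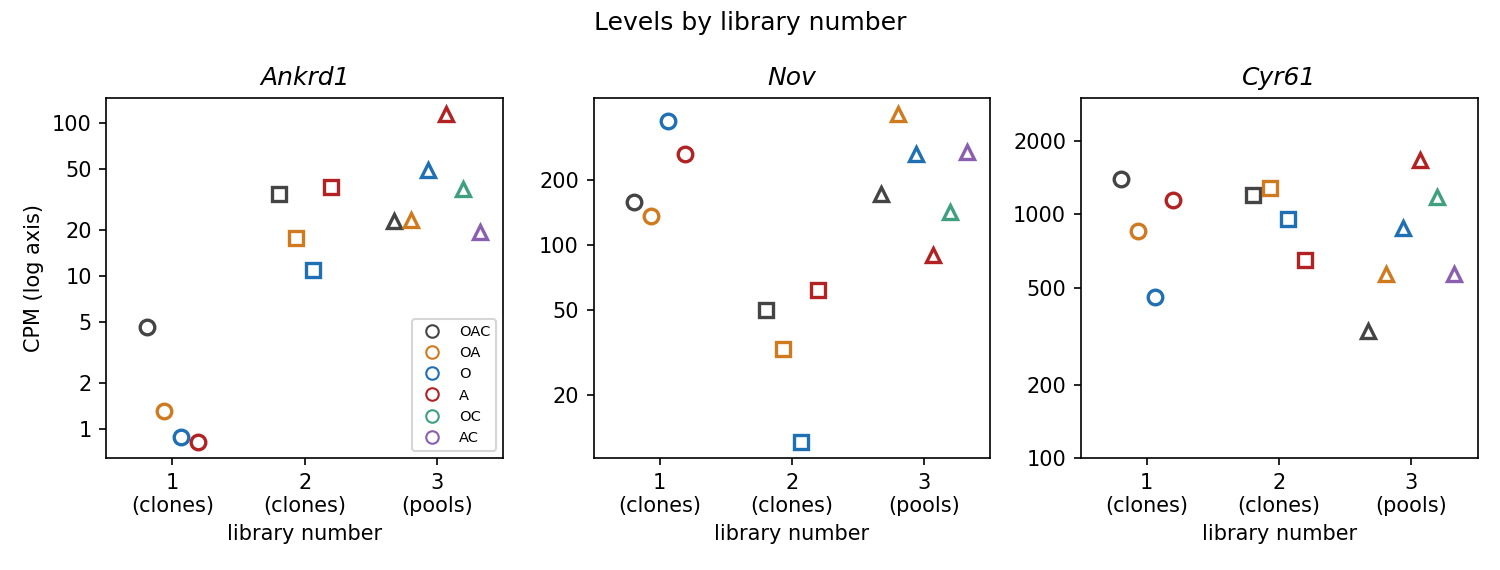
Levels of Ankrd1, Nov and Cyr61 (CPM, log axes) by library number; colours give the potency group, and numbers 1 and 2 are single clones and 3 pools. Ankrd1 is at 0.822 to 4.67 CPM in the clones numbered 1 and Nov at 12.1 to 61.7 CPM in those numbered 2, below all other libraries, while Cyr61 shows no such split.

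Wisp1 (ENSMUSG00000005124), a Wnt-induced CCN protein that promotes osteoblast differentiation, ranged 7.79-fold. It stood at 348, 132 and 263 CPM in OAC1, OAC2 and OAC3, at 297, 101 and 205 CPM in OA1, OA2 and OA3, at 44.7, 214 and 215 CPM in the libraries O1 to O3 and at 255, 195 and 188 CPM in A1, A2 and A3. OC3 had 244 CPM and AC3 146 CPM. O1 stood apart below the rest, and the groups overlapped. O against A gave -0.43 ± 0.58 (-1.71 to 0.86; edgeR FDR 0.976), which ran from -0.72 to 0.01 as single libraries were left out, with 0.01 without O1. Further, OAC against O gave 0.65 ± 0.58 (-0.64 to 1.94; edgeR FDR 0.997).

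Wisp2 (ENSMUSG00000027656) encodes a CCN protein that lacks the C-terminal domain of the others and is known in fat biology for keeping precursor cells undifferentiated. It stood at 440.4, 127 and 72.4 CPM in OAC1, OAC2 and OAC3, at 54.3, 419.7 and 82.0 CPM in OA1, OA2 and OA3, at 192, 59.9 and 98.3 CPM in the libraries O1 to O3 and at 166, 337 and 84.9 CPM in A1, A2 and A3. OC3 had 41.0 CPM and AC3 162 CPM. High libraries (OAC1, OA2 and A2) were spread over 3 groups, and all groups overlapped. Its log2 level had a Spearman rho of 0.62 over the 14 libraries with the GC trend of the library, and its own GC content, 57.0%, is above the median gene; the part of that trend in its levels was not tested. O against A gave -0.75 ± 0.90 (-2.74 to 1.24; edgeR FDR 0.951), and -1.31 to -0.10 as single libraries were left out.

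Among the coactivators, Yap1 (ENSMUSG00000053110) stood at 155, 147 and 134 CPM in OAC1, OAC2 and OAC3, at 107, 163 and 146 CPM in OA1, OA2 and OA3, at 118, 123 and 121 CPM in the libraries O1 to O3 and at 151, 216 and 155 CPM in A1, A2 and A3. OC3 had 126 CPM and AC3 156 CPM. The O libraries lay within 5 CPM of each other, below all A and all OAC libraries. The difference was small: O against A gave -0.53 ± 0.20 (-0.98 to -0.07; edgeR FDR 0.434; DESeq2 adjusted p 0.305) and OAC against O gave 0.27 ± 0.20 (-0.19 to 0.72; edgeR FDR 0.961). Without A2, the highest library, O against A was -0.34, with an FDR of 0.913 in edgeR. With a correction for the GC trend of each library it was -0.4 ± 0.39 (edgeR FDR 0.781).

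Wwtr1 (ENSMUSG00000027803), the gene of TAZ, stood at 132, 99.5 and 112 CPM in OAC1, OAC2 and OAC3, at 101, 47.9 and 116 CPM in OA1, OA2 and OA3, at 87.4, 123 and 115 CPM in the libraries O1 to O3 and at 109, 86.7 and 126 CPM in A1, A2 and A3. OC3 had 142 CPM and AC3 128 CPM. OA2 alone was far below the others, and the groups overlapped. O against A gave 0.02 ± 0.31 in edgeR, with a 95% interval of -0.66 to 0.69 (FDR 1.00). The GC content of Wwtr1, 43.9%, is the lowest among the members, and its level had a rho of -0.65 with the GC trend of the library, where OA2 has the highest value of all; the part of that trend was not tested.

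Amotl2 (ENSMUSG00000032531), a junction protein that binds YAP and is also one of its targets, was the steadiest target gene, within 1.81-fold over all libraries. Its means were 311 ± 37.6 CPM in OAC, 334 ± 89.2 in OA, 375 ± 76.7 in O and 397 ± 77.2 in A (SD, n = 3 each), with 302 CPM in OC3 and 334 CPM in AC3. O against A gave -0.08 ± 0.26 (-0.65 to 0.48; edgeR FDR 1.00) and OAC against A -0.35 ± 0.26 (-0.92 to 0.21; edgeR FDR 1.00). Among the YAP/TAZ targets in O against A, Ctgf had an interval wholly below 0, and Cyr61, Ankrd1 and Amotl2 had intervals that include it, although the differences between these intervals were not tested.

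Over the 14 libraries the members were only loosely tied to each other. Pearson's r of log2 CPM was 0.54 for Ctgf and Cyr61 (Spearman's rho 0.48), with 0.78 among the 8 single clones and 0.38 among the 6 pools. It was also 0.54 for Ctgf and Yap1 (rho 0.74), and 0.49 without O1 and O2, the libraries farthest from the median of Ctgf. For Ctgf and Ankrd1 it was 0.26, and -0.36 without O1 and O2. For Wisp2 and Yap1 it was 0.66. For Nov and Ankrd1 it was -0.27 over all libraries, -0.75 among the single clones and -0.71 among the pools. The points share the GC trend of their library and the potency groups, so these values describe the 14 libraries and carry no p-value.

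The genes with the pattern most like each CCN member were sought by Pearson's r of log2 CPM over the 14 libraries. The search ran over 10768 other genes of at least 5 CPM on average. Members and predicted, clone-like or mitochondrial symbols among them were passed over. For Ctgf they were Zfp618 (0.97), a zinc finger gene, Prkag2 (0.95), a regulatory subunit of AMP-activated kinase, and Mical2 (0.94), an enzyme that oxidises actin, and each had its lowest level in O1. For Cyr61 they were Fos (0.84), Ier2 (0.83) and Egr2 (0.80), which are immediate early genes. Fos ran from 5.35 CPM in AC3 to 58.5 CPM in A3, which was also the highest library for Cyr61. For Nov they were Pacsin2 (0.87), Wdr85 (0.77) and Gramd1b (0.75), each lowest in O2 as Nov was. For Wisp1 they were Spata5 (0.92) and the cell cycle genes Gmnn (0.90) and Tpx2 (0.90), all lowest in O1. For Wisp2 they were Csk (0.90), a kinase that inhibits Src, Ada (0.89), adenosine deaminase, and Foxs1 (0.88), a forkhead factor.

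The rest of the pathway was described with 5 lists, in which Lats2 and Ptpn14 stand in more than 1. edgeR called none of their genes in any comparison, at the background shares given above. The Hippo kinase module (11 of 11 genes tested) showed no gene called by DESeq2 in any comparison and a median log2 fold change of -0.04 in O against A, where the median of all genes was 0.03. Its 4 genes with a positive and 7 with a negative value spread closely around 0. Stk4, which encodes the Hippo kinase MST1, had a mean of 26.6 CPM in O libraries and 35.0 CPM in A libraries (-0.40 ± 0.20, edgeR FDR 0.583). Lats1, the kinase that phosphorylates YAP, had a mean of 74.1 CPM in O libraries and 59.2 CPM in A libraries (0.32 ± 0.64, edgeR FDR 0.998).

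Among 15 upstream regulators and junction scaffolds the median log2 fold change of O against A was -0.54, with 9 genes negative and 6 positive. Fat1, an atypical cadherin upstream of the kinases, had a mean of 1387 CPM in O libraries and 2373 CPM in A libraries (-0.77 ± 0.29, edgeR FDR 0.415). Wwc2, a relative of the scaffold KIBRA, had a mean of 117 CPM in O libraries and 184 CPM in A libraries (-0.65 ± 0.24, edgeR FDR 0.408). Dchs1, a cadherin ligand of the Fat family, had a mean of 5.24 CPM in OAC libraries and 31.3 CPM in O libraries (-2.58 ± 0.91, edgeR FDR 0.763, DESeq2 adjusted p 0.137). It stood at 25.8, 6.89 and 61.3 CPM in the libraries O1 to O3, and the groups overlapped, with 8.42 CPM in OAC1.

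Of 8 TEAD factors and cofactors, 7 were in the table and 6 were tested. Tead2, which binds the motif shown above, was the 1 gene that DESeq2 called, in OA against O, where it called 0.303% of all genes. It stood at 118, 125 and 54.3 CPM in OA1, OA2 and OA3 and at 17.7, 29.2 and 48.7 CPM in the libraries O1 to O3 (1.64 ± 0.41, edgeR FDR 0.851, DESeq2 adjusted p 0.0466). The groups did not overlap, with OA3 close to O3. Tead1 had a mean of 105 CPM in OA libraries and 106 CPM in O libraries (-0.02 ± 0.27, edgeR FDR 0.997). Per length the 2 were close over all libraries, with means of 14.1 RPKM for Tead2 and 12.2 RPKM for Tead1. In O against A the median of the 6 genes was -0.21, and Tead2 had a mean of 31.9 CPM in O libraries and 68.2 CPM in A libraries (-1.10 ± 0.40, edgeR FDR 0.412).

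A published signature of YAP/TAZ targets, taken without the members it holds, had 17 of 18 genes tested and a median of -0.31 in O against A, with 11 genes negative and 6 positive. DESeq2 called 3 of them there, against 3.03% of all genes, and they did not go one way. Nt5e, the ectonucleotidase CD73 and a stromal surface marker, was higher in O, at 2.29, 7.30 and 11.8 CPM in the libraries O1 to O3 and 0.698, 0.121 and 1.07 CPM in A1, A2 and A3 (3.49 ± 1.09, edgeR FDR 0.329, DESeq2 adjusted p 0.0135). Foxf2, a forkhead factor of mesenchyme, was also higher in O, with means of 15.9 CPM in O and 1.92 CPM in A (3.05 ± 0.98, edgeR FDR 0.339, DESeq2 adjusted p 0.0206). Fjx1, a secreted regulator related to the Four-jointed protein of Drosophila, was lower in O, with 0.572, 1.78 and 4.05 CPM in the libraries O1 to O3 and 23.7, 12.1 and 10.9 CPM in A1, A2 and A3 (-2.85 ± 0.96, edgeR FDR 0.361, DESeq2 adjusted p 0.0417).

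The same signature held 1 gene that DESeq2 called in OA against A, where it called 0.937% of all genes. Crim1, a transmembrane protein that binds bone morphogenetic proteins, had a mean of 54.1 CPM in OA libraries and 148 CPM in A libraries (-1.45 ± 0.36, edgeR FDR 0.649, DESeq2 adjusted p 0.0251). Axl, a receptor tyrosine kinase, had a mean of 209 CPM in O libraries and 558 CPM in A libraries (-1.42 ± 0.41, edgeR FDR 0.280), just short of a call in DESeq2 with an adjusted p of 0.0524. Ccdc80, a secreted matrix protein of fat and stroma, had a mean of 469 CPM in O libraries and 412 CPM in A libraries (0.19 ± 0.47, edgeR FDR 1.00).

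The 11 genes of the actin, MRTF and SRF axis, which shares Cyr61 and Ctgf as targets with YAP, had a median of 0.02 in O against A, with 6 positive and 5 negative, and DESeq2 called none in any comparison. Acta2, smooth muscle actin, had a mean of 6014 CPM in O libraries and 4887 CPM in A libraries (0.30 ± 0.60, edgeR FDR 0.999), and Vcl, the focal adhesion protein vinculin, 827 CPM in O and 722 CPM in A (0.20 ± 0.20, edgeR FDR 0.911).

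In OA against O the medians of the lists ran from -0.12 to 0.13, where that of all genes was -0.08. In OAC against O they were 0.10 for the kinases, 0.37 for the upstream regulators, 0.29 for the TEAD list, 0.38 for the target signature and 0.25 for the actin genes, where the median of all genes was -0.06. All 5 medians were above that of all genes in OAC against O, and DESeq2 called 0 genes of these lists there, with 5 genes at an unadjusted p under 0.05 in edgeR, as had 6.02% of all genes. In O against A, edgeR had 7 of 17 genes of the target signature and 4 of 15 upstream regulators at an unadjusted p under 0.05. It had 1 of 6 TEAD list genes and 0 of the kinases and of the actin genes there, against 9.89% of all genes. The lists are described by these counts and medians alone, and no test of a list was made.

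**Figure D5:**
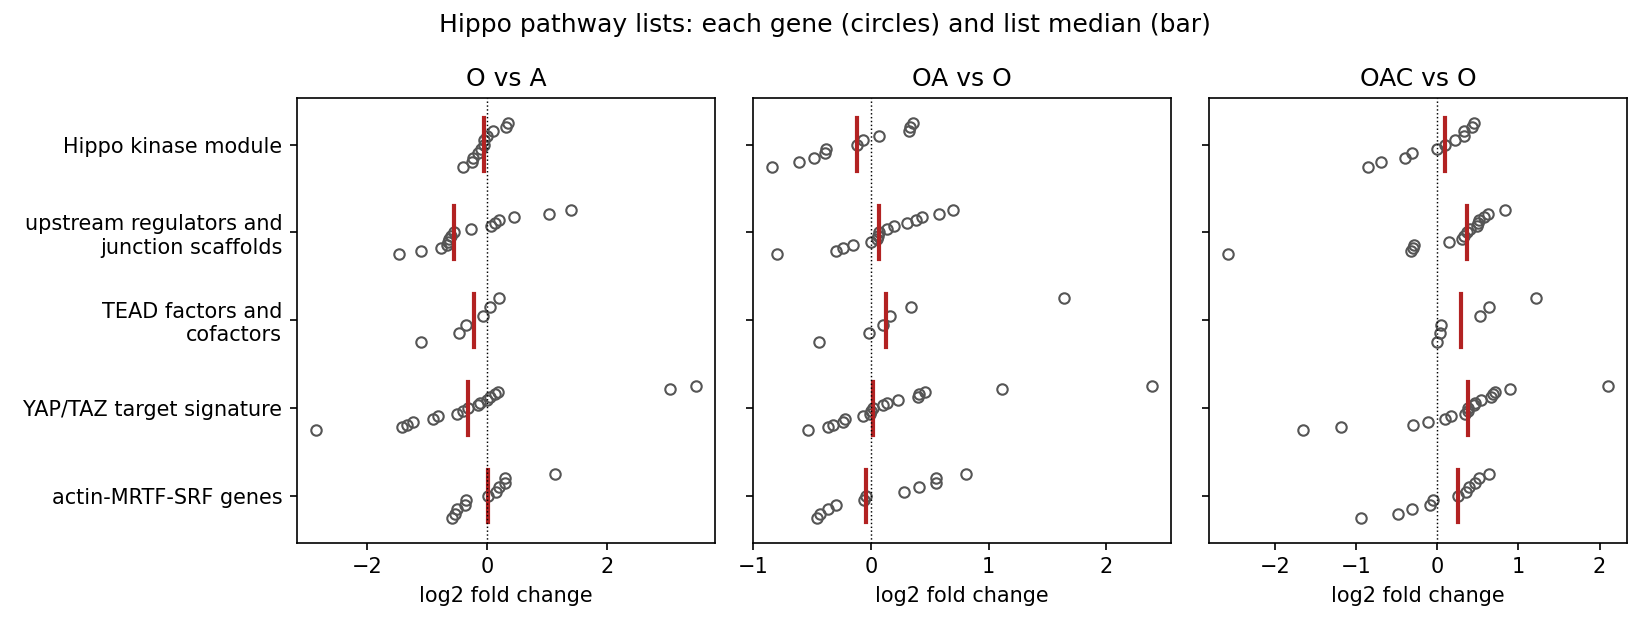
Log2 fold change (edgeR) of each gene in 5 lists of the Hippo pathway and its outputs, in O against A, OA against O and OAC against O (each panel has its own axis). Circles are genes and bars list medians, which in O against A run from -0.54 (upstream regulators and junction scaffolds) to 0.02 (actin genes).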

How the data were processed

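Poly(A) RNA, selected with oligo(dT) beads, was sequenced with strand information, per the labels' protocols. The deposited table gives whole-number read counts per gene for 14 libraries, with an exon length per gene. CASAVA 1.8.0 and bedtools 2.11 were used with build mm9, per the submitters' processing notes; for the aligner, the read filters and the use of strand in counting, details were not given in the sources used here, so reads of overlapping or antisense genes cannot be told apart.

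Counts were scaled to CPM with TMM factors and tested with edgeR 4.0.16 in R 4.3.3 (quasi-likelihood F test, robust, 6 group means, 8 residual degrees of freedom), adjusted over all 13896 tested genes, with DESeq2 1.42.0 as the second test. Only the edgeR test was tried on simulated counts, and DESeq2 was not. GC content came from the longest transcript of a later mouse annotation, matched for 96.5% of tested genes. Because that build and GRCm38.p6 differ from mm9, coordinates are given for promoters only. Libraries were grouped by their labels.

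Named genes were the 9 members and genes drawn from a rule: from each list the genes past the FDR, the 4 with the lowest p among 4 groups and the 2 most abundant, and for likeness the 3 nearest named genes of each CCN member; list genes called by DESeq2 alone were named after their values were seen. The members and lists were chosen with earlier results of these data known. Alternatives were other size factors, no filter on low counts, DESeq2, a GC correction, a replicate block, single clones, each library of the 4 replicated groups left out, OA2 and O1 left out together, and a fit without OC3 and AC3. The result of 1 listed gene is not reported here.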

Additional observations from a re-analysis of the deposited data

Results flagged for a closer look

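In the 6 unipotent libraries (O and A) Wisp1 had a lowest value of 44.7 CPM, in O1, whose gap to the next library took up 0.82 of the whole range of the group on the log2 CPM scale and 0.68 in CPM; O2, O3 and A1 to A3 lay at 188 to 255 CPM. In the 6 multipotent libraries (OAC and OA) Wwtr1 had a lowest value of 47.9 CPM, in OA2, with a gap of 0.72 of the range on the log2 scale and 0.61 in CPM, while the others lay at 99.5 to 132 CPM. The limit for 6 samples is 0.625, which the Wwtr1 gap passed on the log2 scale, the one used, and not in CPM. Of 18 such groups examined these 2 passed, and chance flags about 1 in 20. O1 and OA2 are the libraries with the highest rho with GC content (0.51 and 0.65); its part in these values was not tested.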

How the results depend on the processing

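The count of members called was 0 in all 8 edgeR tests and under all alternatives, with 1 exception: with DESeq2 it was 1 in O against A (Ctgf). With DESeq2 and 1 of the O or A libraries left out, or O1 and OA2 together, chosen after seeing the data, that count was 0 to 1. Of 1323 log2 fold changes over 21 alternatives, 1201 kept their sign and 122 uncalled ones changed it. Only 1 of these 1323 values was called, Ctgf in O against A by DESeq2, and it kept its sign. Ctgf in O against A ranged from -3.48 to -2.23 over the alternatives, with an FDR of 0.248 to 0.673 in edgeR.

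The labels do not say what a shared number marks, and not every pair deviated together: the deviations of 18 same-number pairs correlated at -0.58 to 0.76, 11 of them over 0.1, and 7 of 12 libraries correlated best with their own number. With the replicate block 0 members were called in any comparison; Ctgf in O against A was -2.78 ± 1.02 (edgeR FDR 0.43), Ankrd1 -1.16 ± 0.75 (FDR 0.715, SE 1.57 without the block). Depth limits the Ankrd1 levels of the clones numbered 1, at 14 to 106 reads, and Wisp3. It also limits the low levels of Nt5e (0.121 CPM in A2), Foxf2 (0.486 CPM in A2) and Fjx1 (0.572 CPM in O1). The 3 libraries a group limit the comparisons of groups, since the intervals of Nov, Wisp2 and Ankrd1 include changes of several fold either way.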
